A study of Mus musculus with 64 samples.

Results

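RNA sequencing of gastrocnemius muscle from HIF1α KO and fl/fl mice gave the levels of transcripts for the nuclear-encoded subunits of respiratory complexes II to V. The genes were chosen by symbol: Sdha, Sdhb, Sdhc and Sdhd, Cyc1, and protein-coding genes whose symbols begin with Uqcr, Cox4 to Cox8, or Atp5. A gene was kept when at least 7 libraries held 10 or more counts of it. Of 49 matching protein-coding genes 45 were kept, among 15241 genes tested in all, and they comprised 4 genes of complex II, 9 of complex III, 15 of complex IV, and 17 of complex V. The 4 genes under the count rule were Cox6b2, Cox7b2, and Cox8c, which encode isoforms of complex IV subunits, and an additional identifier annotated as Atp5o. None of these 4 reached 10 counts in any library. A further 8 matching symbols belonged to pseudogenes and were not used.

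Complex II (succinate dehydrogenase) oxidizes succinate in the tricarboxylic acid cycle and passes the electrons to ubiquinone. Complex III carries them from ubiquinol to cytochrome c, complex IV (cytochrome c oxidase) hands them to oxygen, and complex V (ATP synthase) uses the resulting proton gradient to make ATP. Complex II is encoded entirely in the nucleus, whereas the other 3 also contain subunits made from mitochondrial DNA, and oxidative muscle fibers hold more of all of them than glycolytic fibers. HIF1α is the oxygen-regulated subunit of a transcription factor known for raising glycolytic genes and restraining mitochondrial respiration when oxygen is low.

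All mice, controls included, were homozygous for a Hif1a allele with loxP sites around exon 2. HIF1α KO mice also carried 1 copy of HSA-Cre, in which the promoter of human α-skeletal actin drives Cre in skeletal muscle fibers, so the other cells of the muscle keep the gene. fl/fl mice were littermates without Cre. The background was C57BL/6JBomTac and the age 12 to 18 wk. They ran for 60 min on a treadmill, from 6 up to 16 m/min at a 5% incline, or served as sedentary controls, at zeitgeber time 3 (ZT3, early in the light and rest phase) or ZT15 (early in the dark and active phase), and muscle was collected 3 h afterward. Genotype, time, and treatment gave 8 groups of 8 mice with equal numbers of males and females, except that 7 exercised HIF1α KO mice at ZT3 (3 males and 4 females) remained after the library of mouse 44, with a total of 382 counts, was left out. In the 63 libraries used, 31 from males and 32 from females, total counts ranged from 2359780 to 40377963 (median 16236352), and 3 libraries were shallow, with under 5 M counts. Hif1a, counted over the whole gene and therefore mostly outside the deleted exon, had 25.92, 34.96, and 57.31 CPM (counts scaled to the size of the library, given as lowest, median, and highest) in fl/fl mice and 28.79, 35.95, and 49.73 CPM in HIF1α KO mice. Its log2 difference was 0.00 (SE 0.0492, adjusted p = 0.979, edgeR), so the gene-level counts provide little check of the genotype labels. Skeletal muscle markers (Acta1, Ckm, Mb, Tnnt3, and Myh4) summed to between 69680 and 142500 CPM in every library.

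The 45 genes together took between 0.704% and 1.81% of all counts in a library, with a median of 1.14%. By group the median share in fl/fl mice was 1.20% in sedentary mice at ZT3, 1.04% in exercised mice at ZT3, 0.982% in sedentary mice at ZT15, and 1.16% in exercised mice at ZT15. In HIF1α KO mice the corresponding medians were 1.34%, 1.20%, 1.18%, and 1.09%. The ranges of all 8 groups overlapped. Among the 7 exercised HIF1α KO mice at ZT3, mice 20, 23, and 28 stood apart from the other 4. In these 3 mice 35 of the 45 genes were above, and Sdha was below, all of the other 4. Low Sdha was not confined to this group. Every mouse numbered 19 to 29 had between 233.2 CPM (fl/fl mouse 22) and 465.1 CPM (HIF1α KO mouse 25) of Sdha. The lowest of the remaining mice used was HIF1α KO mouse 30, at 497.7 CPM. In this run of numbers mice 19, 22, and 26 were fl/fl and the others were HIF1α KO. Among exercised mice at ZT3 and sedentary mice at ZT15 the run held only HIF1α KO mice. Atp5g1 was highest of its group in fl/fl mice 22 (326.5 CPM) and 26 (281.5 CPM). The same held for HIF1α KO mice 21 (297.6 CPM), 24 (292.5 CPM), 25 (371.7 CPM), and 28 (357.6 CPM). It did not hold for the rest of the run, and Cyc1 was lowest of its group in mouse 27 (142.4 CPM). The part of the run in the genotype differences was not tested. What the run corresponds to is not given in the sources used here. Mice 20, 23, and 28 (2 males and 1 female) came from the second block of 16 mouse numbers, from which there was no exercised fl/fl mouse at ZT3. Their total counts of 14728717 to 19767651 lay within the range of the other 4 exercised HIF1α KO mice at ZT3. Most results that rest on them are given with and without them, although leaving them out was chosen after their values were seen. The other mice numbered 19 to 29 stayed in those fits. Because bulk tissue was sequenced, fewer cells of a type and less RNA per cell cannot be told apart in any of these levels.

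Levels were compared between genes per kilobase of transcript. Per kilobase of merged exons, the mean level over the 63 libraries ran from 0.986 CPM per kb for Cox4i2 to 576 for Atp5a1, the catalytic-core α subunit of ATP synthase. Per kilobase of the principal coding transcript, a measure chosen after the data were seen, Atp5b (the catalytic β subunit) was highest at 949.6 and Atp5a1 next at 730.9. Cox4i2 was lowest at 1.07, followed by Atp5s (named as a coupling factor of ATP synthase) at 5.70. The medians by complex were 160 for complex II, 256 for complex III, 217 for complex IV, and 214 for complex V. Complex II genes were between 50.4 (Sdhc, a membrane anchor) and 269 (Sdhb, the iron-sulfur subunit).

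The first question was whether loss of HIF1α in muscle changed these transcripts. Averaged over the 4 combinations of time and treatment, 25 of the 45 genes rose in HIF1α KO muscle and none fell (quasi-likelihood test of edgeR with a term for sex, Benjamini-Hochberg adjusted p < 0.1 over 15241 genes). Of all genes tested, 4.68% were called higher. The differences were small. The median over the 45 genes was 0.19 on the log2 scale against -0.00 over all genes tested, and 44 of 45 estimates were positive. At an unadjusted p under 0.05 there were 36 of the 45 genes, against 20.4% of all genes, and the Wald test of DESeq2 called 26. DESeq2 called 9.69% of all genes in either direction. Without exercised HIF1α KO mice 20, 23, and 28 at ZT3, edgeR called 1 of the 45 genes, Atp5b (0.15, adjusted p = 0.0415), the median was 0.13, all 45 estimates were positive, and 21 genes had an unadjusted p under 0.05. Of 15762 genes in this fit 1.38% were called higher and 2055 had an unadjusted p under 0.05. The other 24 calls were lost in this fit, which also has fewer mice. The medians of the 4 complexes lay close together, at 0.18 for complex II, 0.18 for complex III, 0.20 for complex IV, and 0.19 for complex V.

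**Figure D1:**
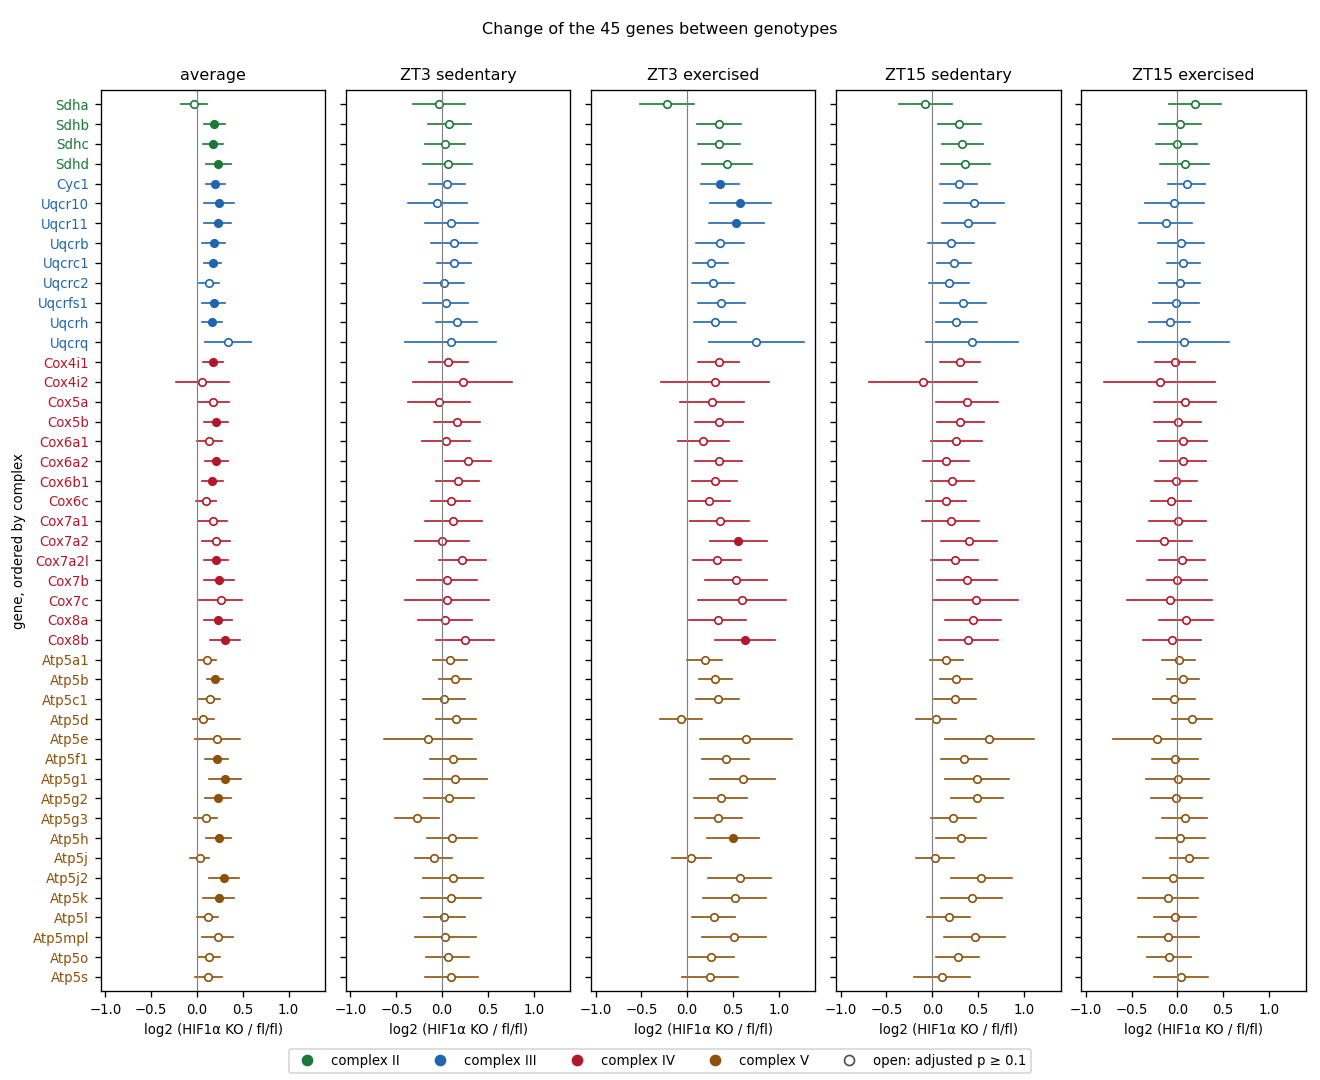
Log2 difference of HIF1α KO against fl/fl (x axis) for each of the 45 genes (rows, colored by complex), averaged and in each combination of time and treatment. Lines are 95% confidence intervals and filled points have an adjusted p under 0.1 (edgeR): 25 in the average, 6 in exercised mice at ZT3, and 0 in the other 3 combinations.

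In complex II, 3 of 4 genes rose. Sdhd, which with Sdhc anchors the enzyme in the inner membrane, had 94.34, 133.7, and 238.1 CPM (lowest, median, and highest of 32) in fl/fl mice and 101.5, 157.5, and 240.1 CPM (of 31) in HIF1α KO mice. The ranges nearly coincided, and the difference in log2 was 0.23 (SE 0.0687, adjusted p = 0.0338). Sdhb differed by 0.19 (SE 0.0596, adjusted p = 0.0512) and Sdhc by 0.18 (SE 0.0571, adjusted p = 0.0620). Sdha, the flavoprotein that oxidizes succinate, was the exception. It had 233.2, 577.9, and 808.0 CPM in fl/fl mice and 347.5, 596.1, and 776.4 CPM in HIF1α KO mice, a log2 difference of -0.03 with a 95% confidence interval from -0.18 to 0.11 (adjusted p = 0.843), and was the only 1 of the 45 with a negative estimate.

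In complex III, 7 of 9 genes rose. Cyc1, cytochrome c1, had 109.7, 144.2, and 198.2 CPM in fl/fl mice and 127.5, 160.9, and 229.1 CPM in HIF1α KO mice (log2 difference 0.20, SE 0.0514, adjusted p = 0.0127). Uqcrc1, a core protein of the matrix side, had 329.2, 451.2, and 566.3 CPM in fl/fl mice and 374.8, 498.2, and 685.1 CPM in HIF1α KO mice (log2 difference 0.17, SE 0.0473, adjusted p = 0.0212). For both genes the lowest, median, and highest values were higher in HIF1α KO mice, and the ranges overlapped over most of their length. The other called genes were Uqcrfs1 (the Rieske iron-sulfur protein), Uqcrh (the hinge protein), and the small subunits Uqcr10, Uqcr11, and Uqcrb, with log2 differences from 0.16 to 0.24. Uqcrq had the largest estimate of the complex, 0.34, with a wide error (SE 0.129, adjusted p = 0.118), and the other core protein, Uqcrc2, had the smallest (0.13, adjusted p = 0.184).

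In complex IV, 8 of 15 genes rose. Cox8b, the isoform of subunit 8 typical of heart and skeletal muscle, had 84.0, 174.6, and 267.2 CPM in fl/fl mice and 108.3, 218.5, and 349.9 CPM in HIF1α KO mice. The median of HIF1α KO mice lay within the upper part of the fl/fl range, and the log2 difference was 0.31 (SE 0.0816, adjusted p = 0.0176). Cox6a2, the muscle isoform of subunit 6a, rose by 0.21 (adjusted p = 0.0444), and Cox7a2l, known for its part in joining complexes III and IV into supercomplexes, rose by 0.21 (adjusted p = 0.0467). Cox8a, Cox4i1, Cox5b, Cox6b1, and Cox7b also passed, with log2 differences from 0.17 to 0.24. Cox4i2 had the smallest estimate, 0.06 (SE 0.148, adjusted p = 0.872). The remaining 6 genes, Cox5a, Cox6a1, Cox6c, Cox7a1, Cox7a2, and Cox7c, had estimates from 0.10 to 0.26.

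In complex V, 7 of 17 genes rose. Among the F1 genes, Atp5b had 1369, 1680, and 2243 CPM in fl/fl mice and 1563, 1855, and 2437 CPM in HIF1α KO mice. Its log2 difference of 0.19 (SE 0.0449) had the smallest adjusted p of the 45 genes, 0.00508. The other F1 genes, Atp5a1, Atp5c1, Atp5d, and Atp5e, had estimates from 0.07 to 0.22 and did not pass. In the membrane part, Atp5g1, 1 of 3 genes for the same c-ring protein, had 114.1, 182.0, and 326.5 CPM in fl/fl mice and 119.7, 218.1, and 371.7 CPM in HIF1α KO mice (log2 difference 0.31, SE 0.0888, adjusted p = 0.0295). Atp5g2 rose by 0.23 (adjusted p = 0.0479), whereas Atp5g3 had an estimate of 0.09 (adjusted p = 0.409). Atp5j2, a small membrane subunit, had a log2 difference of 0.29 (SE 0.0849, adjusted p = 0.0302). Of the peripheral stalk, Atp5f1 (0.21) and Atp5h (0.24) passed, and Atp5o (0.13) and Atp5j (0.03) did not. Atp5k (0.24, adjusted p = 0.0961) was the remaining gene that passed, and Atp5l (0.12), Atp5mpl (0.23), and Atp5s (0.12) did not.

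**Figure D2:**
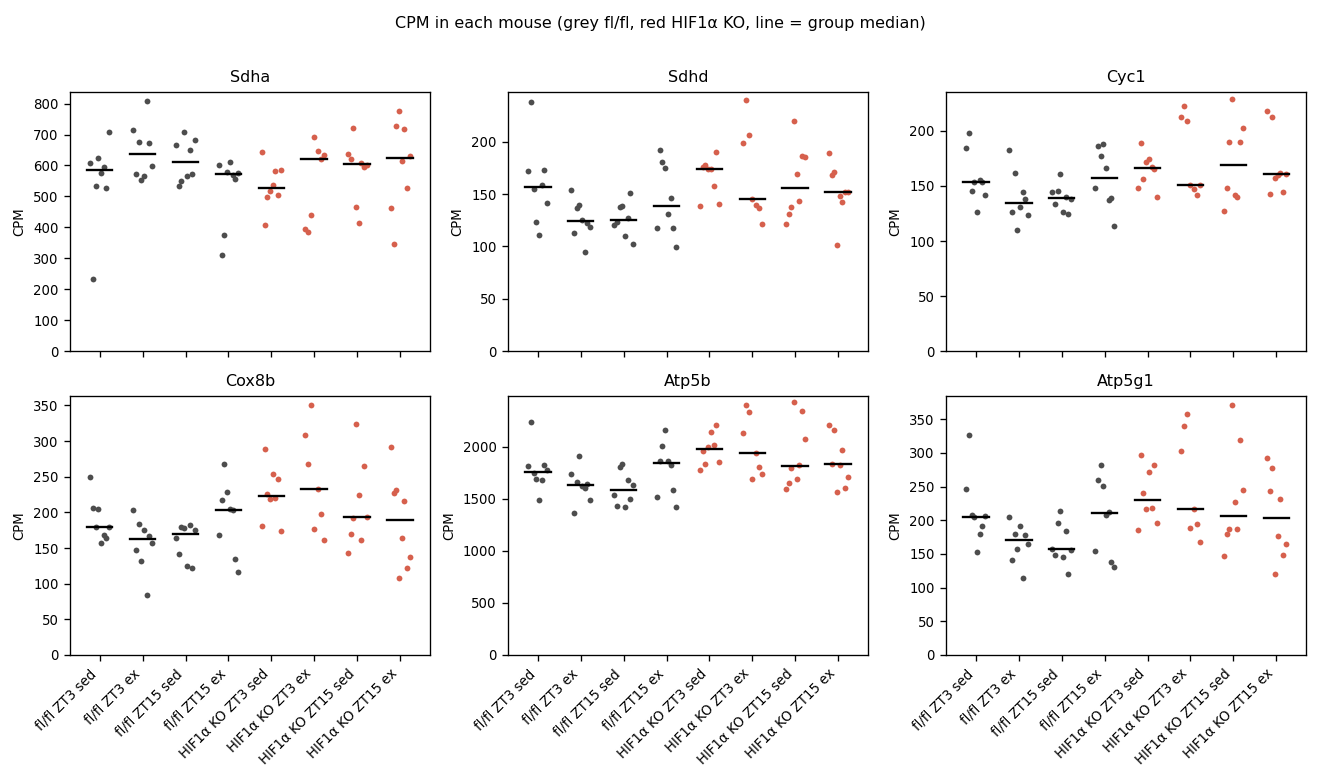
CPM (y axis) of Sdha, Sdhd, Cyc1, Cox8b, Atp5b, and Atp5g1 in each mouse of the 8 groups (x axis), fl/fl in gray and HIF1α KO in red, with the group median as a line. The groups overlap for every gene, and the single low fl/fl point of Sdha at ZT3 (sedentary) lies at 233.2 CPM.

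Of the 12 alternative fits of this comparison at the same threshold, Sdhd, Cyc1, Cox8b, Atp5g1, and Atp5j2 kept an adjusted p under 0.1 in 11, all but the fit without mice 20, 23, and 28, in which their adjusted p was between 0.116 and 0.284. Atp5b also kept it in 11. Atp5k, Cox6b1, and Uqcrb kept it in 4. With the 4 blocks of 16 consecutive mouse numbers as a covariate 17 genes were called and the median fell to 0.14. What the blocks correspond to is not given in the sources used here, and they were unevenly spread: 4 of 8 exercised fl/fl mice at ZT3 came from the first block and none from the second. When the library of mouse 44 was added, 11 genes were called. Shares of all genes called in this fit and in the block fit are not given here.

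Log2 differences in this comparison also moved with transcript length. Across 12884 tested genes outside the 45 with a known length, the median was 0.11 for 340 transcripts under 750 nt, 0.07 for 1713 transcripts of 750 to 1500 nt, and -0.02 for 10831 longer transcripts. The median length of the subunit transcripts was 547 nt for complex III, 645 nt for complex IV, and 809 nt for complex V. For complex II it was 2065 nt, which falls in the longest class. Among the 45, the median was 0.21 for 25 transcripts under 750 nt, 0.19 for 12 transcripts of 750 to 1500 nt, and 0.17 for 8 longer ones (Spearman's rho = -0.38 over 45 genes that share libraries, a description). With the length trend of each library, estimated on genes outside the 45, taken out of the fit, an alternative added after the data were seen, 10 of the 45 were called and the median was 0.10. The source of the length trend was not tested.

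**Figure D3:**
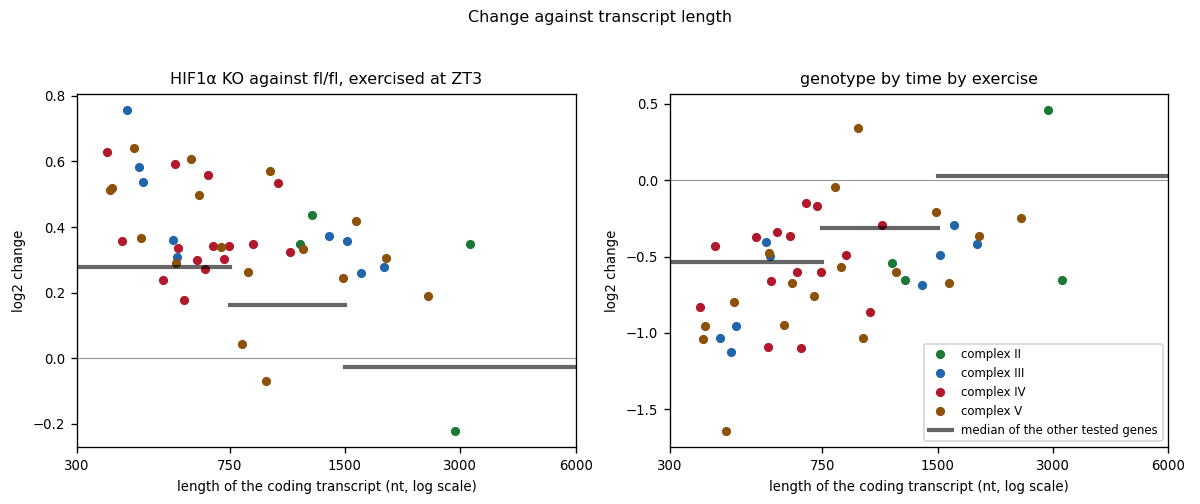
Log2 change (y axis) of each of the 45 genes against the length of its coding transcript in nt (x axis, log scale), for HIF1α KO against fl/fl in exercised mice at ZT3 and for the three-way term, with gray lines for the median of the other tested genes in each length class. In the left panel these medians fall from 0.28 under 750 nt to -0.03 at 1500 nt and longer, and most of the 45 genes lie above them.

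The promoter sequences of the genes that bear on this comparison were examined for short motifs, with the 250 bases before the RefSeq transcription start and 50 after it (build GRCm38.p6) as the window. An entry existed for 34 of the 45 genes. Sdhd, Cox8b, and Atp5g1 are shown because they had the highest log2 difference of complexes II, IV, and V, and Sdha because its estimate was negative. The 250 bases before the start are written from 5′ to 3′ on the coding strand, and capitals mark ACGTG or GCGTG on either strand (the core of the hypoxia response element that HIF1 binds, read as CACGT or CACGC from the other strand) and, in Atp5g1, the E-box CACGTG, which contains that core on both strands.
Sdha (chr13:74350241-74350490, minus strand): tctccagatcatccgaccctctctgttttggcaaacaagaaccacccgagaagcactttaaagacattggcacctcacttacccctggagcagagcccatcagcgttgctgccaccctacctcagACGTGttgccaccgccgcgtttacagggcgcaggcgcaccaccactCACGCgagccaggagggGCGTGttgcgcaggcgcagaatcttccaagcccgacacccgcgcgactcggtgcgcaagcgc
Sdhd (chr9:50603850-50604099, minus strand): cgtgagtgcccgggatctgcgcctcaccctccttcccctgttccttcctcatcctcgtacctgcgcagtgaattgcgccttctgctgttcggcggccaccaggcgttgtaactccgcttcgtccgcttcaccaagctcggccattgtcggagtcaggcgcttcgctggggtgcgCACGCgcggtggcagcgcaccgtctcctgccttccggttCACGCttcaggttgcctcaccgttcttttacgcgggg
Cox8b (chr7:140900447-140900696, minus strand): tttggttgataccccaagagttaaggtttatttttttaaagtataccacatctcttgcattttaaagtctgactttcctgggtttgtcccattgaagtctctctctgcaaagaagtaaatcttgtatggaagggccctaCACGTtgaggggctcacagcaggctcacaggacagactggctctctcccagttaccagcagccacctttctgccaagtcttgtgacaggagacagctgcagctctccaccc
Atp5g1 (chr11:96075632-96075881, minus strand): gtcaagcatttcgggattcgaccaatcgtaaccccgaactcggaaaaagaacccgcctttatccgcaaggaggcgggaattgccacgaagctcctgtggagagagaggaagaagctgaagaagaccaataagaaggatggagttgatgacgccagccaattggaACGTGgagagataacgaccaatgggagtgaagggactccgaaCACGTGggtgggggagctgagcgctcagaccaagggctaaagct

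The window of Sdha held 3 matches to the hypoxia core in these 250 bases, as did that of Atp5g1, while Sdhd held 2 and Cox8b held 1. Whether the number of matches goes with the log2 difference between genotypes was not tested. The core occurred in 27 of the 34 windows (79.4%) and in 46.7% of the windows of 27025 genes. The NRF1 core GCGCATGC, bound by a known activator of respiratory chain genes, occurred in 7 (20.6%, against 3.05% of all windows), among them Sdhb, Uqcrc1, Cox6a1, and Atp5g2. The half-site AAGGTCA of estrogen-related receptors occurred in 5 (14.7% against 5.38%), the ETS core CCGGAAGT in 4 (11.8% against 4.31%), and the E-box CACGTG in 4 (11.8% against 8.09%), all on both strands. A match to these letters does not show that a factor binds there. The windows were not matched for base composition, and the differences between these shares were not tested.

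The 4 combinations of time and treatment were then compared one by one, with 8 mice a group (7 for exercised HIF1α KO mice at ZT3). In exercised mice at ZT3, 6 of the 45 genes rose and the median log2 difference was 0.35, against 0.00 over all genes tested, of which 0.873% were called higher. At an unadjusted p under 0.05 there were 37 of the 45 genes, compared with 17.4% of all genes. The genes called were Cyc1, Uqcr10, and Uqcr11 of complex III, Cox7a2 and Cox8b of complex IV, and Atp5h of complex V. Estimates were positive for 43 of the 45 genes, the 2 others being Sdha (-0.22) and Atp5d (-0.07, the δ subunit of F1).

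Cox8b had 84.0, 162.1, and 203.4 CPM (lowest, median, and highest) in exercised fl/fl mice at ZT3 and 161.3, 233.4, and 349.9 CPM in exercised HIF1α KO mice. The ranges overlapped, although the median of HIF1α KO mice exceeded every fl/fl mouse, and the log2 difference was 0.63 (SE 0.167, adjusted p = 0.0678). Uqcr11, a small subunit of complex III, had 77.48, 109.0, and 125.8 CPM in fl/fl mice and 110.1, 137.6, and 222.3 CPM in HIF1α KO mice (log2 difference 0.54, adjusted p = 0.0835). Cox7a2, the widely expressed isoform of subunit 7a, had 54.19, 66.49, and 90.06 CPM against 72.61, 92.70, and 140.1 CPM (0.56, adjusted p = 0.0845). For both genes, as for Cox8b, the median of HIF1α KO mice lay above all fl/fl mice. Atp5h, of the peripheral stalk, had 95.09, 112.8, and 130.0 CPM against 117.4, 151.4, and 191.3 CPM (0.50, adjusted p = 0.0871). Uqcr10 differed by 0.58 (adjusted p = 0.0942) and Cyc1 by 0.36 (adjusted p = 0.0948), and their ranges overlapped as well. The largest estimate belonged to Uqcrq, at 0.76, which did not pass (adjusted p = 0.152). It had 42.86, 58.43, and 83.26 CPM in fl/fl mice and 54.56, 79.56, and 178.4 CPM in HIF1α KO mice.

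HIF1α KO mice 20, 23, and 28 held the highest values of this group. Cox8b was between 267.9 and 349.9 CPM in these 3 and between 161.3 and 233.4 CPM in the other 4, and Cyc1 was between 208.6 and 222.6 CPM against 142.2 and 150.8 CPM. Uqcrq was between 132.7 and 178.4 CPM in the 3 mice and between 54.56 and 79.56 CPM in the other 4, and Sdhd was between 198.4 and 240.1 CPM against 121.8 and 145.0 CPM. Sdha went the other way, with 386.1 to 440.7 CPM in the 3 mice and 621.9 to 690.7 CPM in the other 4. Without these 3 mice no gene was called in this combination, the median fell to 0.13, and none of the 45 genes passed 0.05 before adjustment (4.34% of all genes), with 42 estimates positive. Cox8b then had a log2 difference of 0.35 and Cyc1 of 0.14. The cause of the split was not tested.

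The calls at ZT3 after exercise depended on the fit. No gene was called with the mouse-number block (median 0.21), without the sex term, at an adjusted p under 0.05, or with the length trend removed (median 0.15), whereas DESeq2 called 16, and 5.02% of the genes to which it gave an adjusted p. Without the 3 shallow libraries 1 gene was called.

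In the other 3 combinations no gene of the 45 was called by edgeR or by DESeq2. In sedentary mice at ZT15 the estimates were positive for 43 genes with a median of 0.30, and 27 genes had an unadjusted p under 0.05. In the same comparison 0.0459% of all genes were called in either direction and 10.6% had an unadjusted p under 0.05. Atp5e (ε subunit of F1) had the largest estimate, 0.62, and Cox4i2 the lowest, -0.10. In sedentary mice at ZT3 the median was 0.08 and 38 estimates were positive. Before adjustment 2 of the 45 genes passed 0.05 there, against 6.81% of all genes, and 0.400% of all genes were called. In exercised mice at ZT15 the median was 0.00 and 23 estimates were positive. Before adjustment none of the 45 genes passed 0.05 there, against 7.41% of all genes, and 0.400% of all genes were called. Of the 45 genes, 37 had their largest estimate in exercised mice at ZT3, 5 in sedentary mice at ZT15, 3 in exercised mice at ZT15, and 0 in sedentary mice at ZT3. For 18 genes the estimate was positive in all 4 combinations. These counts include exercised HIF1α KO mice 20, 23, and 28 at ZT3 and are not given here without them. Without these mice the median in exercised mice at ZT3, given above, was below the 0.30 of sedentary mice at ZT15. That 0.30 still includes HIF1α KO mice 25 and 29 of the low-Sdha run, which held no sedentary fl/fl mouse at ZT15. It is not given here without them. Neither combination can therefore be read as the one with the largest differences.

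Whether the genotype difference itself varied with time or exercise was asked with interaction terms, and edgeR called no term for any of the 45 genes or for any other gene (0.00% of all genes in each of the 7 terms). The term of genotype by time had a median of 0.22 in sedentary mice (4 of 45 genes with an unadjusted p under 0.05, against 3.51% of all genes) and -0.35 in exercised mice (18 of 45, against 15.2%). The term of genotype by exercise had a median of 0.29 at ZT3 (6 of 45, against 4.61%) and -0.29 at ZT15 (13 of 45, against 9.11%). For the three-way term of genotype, time, and exercise the median was -0.60, and 27 of the 45 genes had an unadjusted p under 0.05, against 14.4% of all genes. Atp5e had the lowest three-way estimate, -1.64 (95% confidence interval -2.62 to -0.66), followed by Uqcr10 at -1.13 and Cox7a2 at -1.10, and Sdha (0.46) and Atp5d (0.34) were the only genes with positive estimates. The adjusted p was 0.262 for each of the first 3. DESeq2 called none of the 45 genes in these 5 terms. These medians depended on the fit. The three-way median became -0.33 with the mouse-number block, -0.22 with the length trend removed, -0.11 with both, and -0.36 without exercised HIF1α KO mice 20, 23, and 28 at ZT3, and without these 3 mice 5 of the 45 genes had an unadjusted p under 0.05. For genotype by time in exercised mice the median became -0.09, -0.12, 0.01, and -0.16 in the same order of fits. For genotype by exercise it became 0.21, 0.10, 0.09, and 0.07 at ZT3, and -0.11, -0.08, -0.01, and -0.27 at ZT15.

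The interaction of time with exercise within each genotype is a component of the three-way term. In fl/fl mice it had a median of 0.47, 41 positive estimates, and 31 genes with an unadjusted p under 0.05, against 18.8% of all genes. No gene was called by edgeR (lowest adjusted p = 0.135), and DESeq2 called 14, and 6.28% of the genes to which it gave an adjusted p. The median became 0.22 with the mouse-number block, 0.17 with the length trend removed, 0.09 with both, and 0.44 without exercised HIF1α KO mice 20, 23, and 28 at ZT3. In this last fit edgeR called 5 genes, and the share of all genes called is not given here. In HIF1α KO mice the median was -0.13, no gene had an unadjusted p under 0.05 (2.24% of all genes), and neither tool called a gene. Without the 3 mice the median was 0.07. Atp5e had the largest estimate in fl/fl mice, 1.20. Its median was 127.8 CPM in sedentary and 80.18 CPM in exercised mice at ZT3, and 77.59 CPM in sedentary and 107.2 CPM in exercised mice at ZT15. In HIF1α KO mice the medians were 124.5, 101.3, 113.1, and 92.14 CPM in the same order. The lowest and highest mouse of each group were as far apart as 37.20 and 147.5 CPM in exercised fl/fl mice at ZT3, and the ranges of all 8 groups overlapped.

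**Figure D4:**
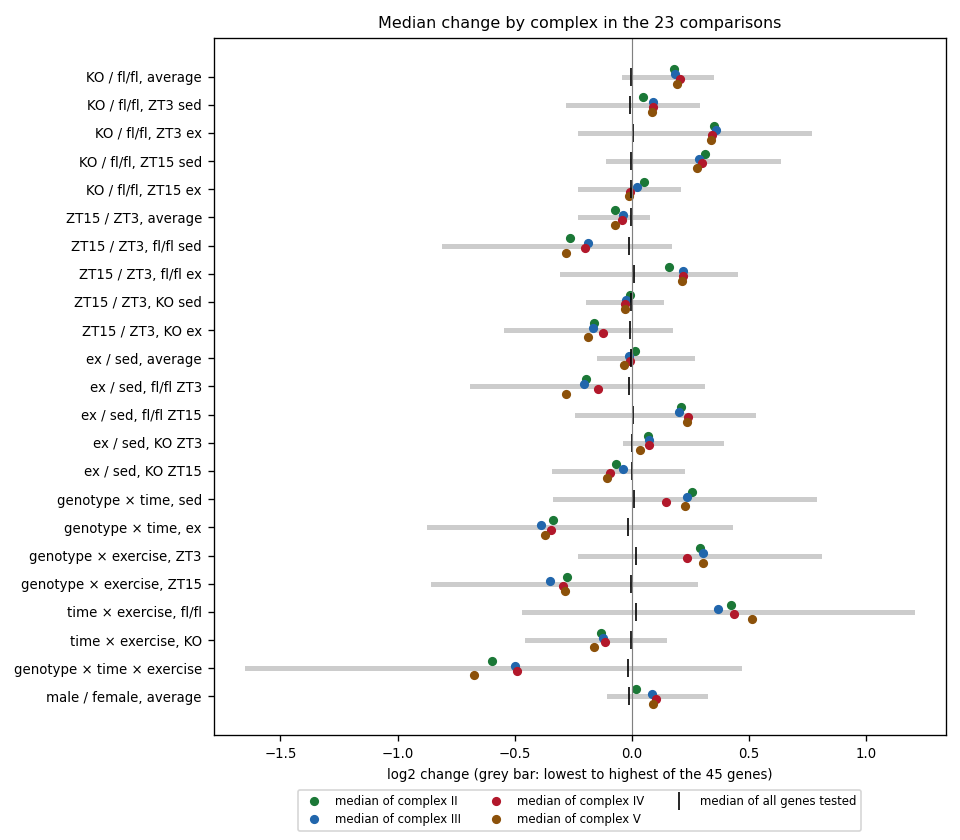
Median log2 change (x axis) of the genes of each complex (colored points) in the 23 comparisons (rows), with a gray bar from the lowest to the highest of the 45 genes and a black tick for the median of all genes tested. The medians of the 4 complexes lie near each other in every row, and the widest bar, from -1.64 to 0.46, belongs to the three-way term.

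Time of day was compared next, as ZT15 against ZT3. Averaged over genotype and treatment, no gene of the 45 was called by edgeR or DESeq2 and none had an unadjusted p under 0.05, while 8.02% of all genes were called and 17.5% had an unadjusted p under 0.05. The median was -0.06, and Atp5e had the lowest estimate (-0.22, adjusted p = 0.362). The 4 groups gave different medians: -0.24 in sedentary fl/fl mice, 0.21 in exercised fl/fl mice, -0.03 in sedentary HIF1α KO mice, and -0.16 in exercised HIF1α KO mice, where it was 0.05 without mice 20, 23, and 28. In sedentary fl/fl mice 21 of the 45 genes had an unadjusted p under 0.05 (15.9% of all genes), 1.88% of all genes were called, and edgeR called none of the 45 and DESeq2 called 2 (3.15% of the genes to which it gave an adjusted p). With the mouse-number block edgeR called 5, and without HIF1α KO mice 20, 23, and 28, which are not among the groups compared here, it called 3 (shares of all genes in these fits are not given here). Atp5e had 75.04, 127.8, and 235.0 CPM at ZT3 and 58.59, 77.59, and 91.31 CPM at ZT15 in these mice, so that its ranges overlapped (log2 difference -0.80, 95% confidence interval -1.29 to -0.31, adjusted p = 0.109). In the other 3 groups no gene of the 45 was called by either tool. In exercised fl/fl mice 5 of the 45 genes passed 0.05 before adjustment, as did 12.5% of all genes, of which 1.18% were called. In sedentary HIF1α KO mice 0 passed (5.75% of all genes, with 0.479% called), and in exercised HIF1α KO mice 1 passed, Cox8b (10.6% of all genes, with 0.663% called).

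For exercise, averaged over genotype and time, 1 gene of the 45 rose, compared with 2.06% of all genes called higher. Atp5l, the g subunit in the membrane part of ATP synthase, had 11.75, 15.33, and 21.01 CPM in 32 sedentary mice and 11.07, 18.53, and 23.37 CPM in 31 exercised mice. Both groups reached nearly the same extremes, and the log2 difference was 0.26 (SE 0.0589, adjusted p = 0.00590). Its estimate was positive in fl/fl mice at ZT3 (0.12) and ZT15 (0.37) and in HIF1α KO mice at ZT3 (0.38) and ZT15 (0.16), and the call remained in both fits without the length trend. Atp5d had an estimate of 0.17 (adjusted p = 0.122) and Cox6a1 of 0.20 (adjusted p = 0.158). These were the only 3 of the 45 genes with an unadjusted p under 0.05, and the median over the 45 was -0.01. DESeq2 also called 1 gene, and 3.38% of all genes in either direction.

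Within the 4 combinations of genotype and time exercise gave no call among the 45 genes by edgeR or DESeq2. In fl/fl mice at ZT3 the median was -0.23, 4 estimates were positive, and 17 of the 45 genes passed 0.05 before adjustment, against 13.8% of all genes, of which 0.236% were called. In fl/fl mice at ZT15 the median was 0.22, 41 estimates were positive, and 13 genes passed 0.05 before adjustment (9.23% of all genes, with 0.00% called). In HIF1α KO mice the median was 0.06 at ZT3 (-0.15 without mice 20, 23, and 28), where 1 gene passed, Atp5l (5.07% of all genes, with 0.131% called), and -0.09 at ZT15, where 0 passed (5.54% of all genes, with 0.0591% called). Cox7a2 had the lowest estimate of complex IV in fl/fl mice at ZT3. It had 70.11, 93.38, and 140.5 CPM in sedentary and 54.19, 66.49, and 90.06 CPM in exercised mice (log2 difference -0.49, adjusted p = 0.207). The exercised fl/fl libraries at ZT3 enter this comparison, the comparison of the genotypes after exercise at ZT3, and the interaction terms, so the values of these comparisons are not independent of each other.

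Sex was a term of the main model, and 9 of the 45 genes were higher in males than in females, against 13.3% of all genes called higher and 25.1% called in either direction. None of the 45 was lower. At an unadjusted p under 0.05 there were 11 of the 45, against 30.6% of all genes. The share called was below that of all genes called in either direction, and above that of all genes called higher. Estimates were positive for 39 of the 45 genes, with a median of 0.09 against -0.01 over all genes tested. Uqcrc1 had 329.2, 430.3, and 584.5 CPM in 32 females and 397.4, 508.8, and 685.1 CPM in 31 males (log2 difference 0.25, SE 0.0474, adjusted p = 3.92e-05). Cox7a1, the muscle isoform of subunit 7a, had 102.9, 156.2, and 243.7 CPM in females and 128.8, 193.0, and 323.2 CPM in males (0.31, SE 0.0807, adjusted p = 0.00270). The sexes overlapped over most of the range for both genes. The others were Cyc1 of complex III, Cox4i1, Cox7a2, and Cox8b of complex IV, and Atp5a1, Atp5d, and Atp5s of complex V, with log2 differences from 0.15 to 0.26. No gene of complex II was called, and its median was 0.02. DESeq2 called 9 genes as well, and 26.6% of all genes in either direction.

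Marker transcripts of fiber types and other cell types differed between the sexes. All 9 slow-fiber markers were lower in males, with a median of -0.88, and their summed level was 361.3, 846.7, and 2190 CPM in males and 689.2, 1571, and 4443 CPM in females. Of 5 adipose markers 4 were tested and 3 were lower in males (summed 102.4, 160.6, and 321.0 CPM in males, 122.1, 211.0, and 373.8 CPM in females). The fifth, Ucp1, which defines brown fat, had 4 counts over all libraries. Of 5 blood markers 3 were higher in males (60.38, 142.4, and 583.5 CPM against 58.02, 123.2, and 206.4 CPM), and of 3 fast-fiber markers Myh2 was lower. Of 5 muscle markers 3 were higher in males, Mb by 0.30 (adjusted p = 0.0193), Ckm by 0.15 (adjusted p = 0.0529), and Tnnt3 by 0.18 (adjusted p = 0.00732), and the 5 summed to 85260, 118000, and 142500 CPM in males and 69680, 112800, and 135600 CPM in females. The mitochondrially encoded mt-Co1 was also higher in males, by 0.31 (SE 0.0618, adjusted p = 7.78e-05). With the slow-fiber score as a covariate 17 of the 45 genes were called between the sexes. How many of all genes were called in that fit is not given here, so the rise from 9 cannot be read as particular to the 45. The part of the muscle, adipose, and blood markers in the sex difference was not tested.

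Between genotypes these lists showed little. No marker of slow fibers (0 of 9), fast fibers (0 of 3), muscle (0 of 5), adipose tissue (0 of 4), blood (0 of 5), or endothelium (0 of 5) was called, nor was the leukocyte marker Ptprc. Of 5 macrophage markers 1 was lower in HIF1α KO mice, Cd163 (-0.27, adjusted p = 0.0682, or 0.347 without exercised HIF1α KO mice 20, 23, and 28 at ZT3). The summed macrophage level was 82.71, 116.1, and 294.8 CPM in fl/fl mice and 56.15, 112.5, and 185.7 CPM in HIF1α KO mice. With the slow-fiber score as a covariate 26 of the 45 genes were called between genotypes (the share of all genes in that fit is not given here). The part of the macrophage markers was not tested.

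Other genes of the pathway were counted from lists of symbols. In the genotype average 14 of 36 nuclear genes of complex I rose, with a median of 0.16. Ndufs3, a core subunit, had the smallest p (0.25, SE 0.0583, adjusted p = 0.00449). Among genes that assemble the complexes, 1 of 4 rose for complex II (Sdhaf2), 2 of 6 for complex III (Uqcc1 with the smallest p), 6 of 23 for complex IV (Higd2a with the smallest p), and 0 of 5 for complex V. Of 82 cytoplasmic ribosomal protein genes, whose transcripts are also short, 8 rose and the median was 0.13. In exercised mice at ZT3 the ribosomal median was 0.33, close to the 0.35 of the 45 subunit genes. Without exercised HIF1α KO mice 20, 23, and 28 at ZT3, the genotype average gave calls for 2 of the 36 complex I genes, Ndufs3 among them (0.19, adjusted p = 0.0489), and for 0 of the assembly and ribosomal genes, and the ribosomal median in exercised mice at ZT3 was 0.12. Of 6 mitochondrially encoded subunits of complexes III to V only mt-Co1 and mt-Cytb had enough counts in these poly-A libraries, and neither was called (0.15 and -0.14). None of 4 other electron carriers and respiratory chain genes outside the symbol rule was called.

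Among these, Ndufa4, a subunit of complex IV named for complex I, had an average genotype difference of 0.21 (SE 0.101, adjusted p = 0.233). Of the ATP synthase genes whose symbols fall outside the rule, Atpif1, which encodes the inhibitor of ATP hydrolysis, rose by 0.20 (SE 0.0694, adjusted p = 0.0852, or 0.237 without these 3 mice), and Usmg5, a small membrane subunit, had an estimate of 0.14 (adjusted p = 0.157).

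Several complex IV subunits have paralogous isoforms, and their ratio within a library does not depend on how the library is scaled. For 4 pairs both genes were counted. Cox4i2, the isoform known to be raised by HIF1 in low oxygen, was far below Cox4i1 in every mouse, with a log2 ratio of counts between -9.98 and -7.79 (median -8.69). Per kilobase of coding transcript Cox4i1 was 465 times higher. The widely expressed Cox6a1 was below the muscle isoform Cox6a2 (median -5.10), as was Cox8a below Cox8b (median -3.80), and Cox7a2 was closer to Cox7a1 (median -0.96, from -2.17 to -0.43). Per kilobase the second of each pair was 28.8, 20.9, and 3.41 times higher, respectively.

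No shift of these ratios between genotypes was detected. Averaged over the 4 combinations, the log2 ratio differed between genotypes by -0.09 for Cox4i2 to Cox4i1 (p = 0.517), -0.06 for Cox6a1 to Cox6a2 (p = 0.512), 0.03 for Cox7a2 to Cox7a1 (p = 0.697), and -0.07 for Cox8a to Cox8b (p = 0.410), by two-sided permutation tests with 100000 shuffles within combinations. After adjustment over 32 comparisons of ratios none passed 0.05. The smallest p was that of Cox8a to Cox8b between the sexes, where the ratio was -3.86 in males and -3.65 in females (difference adjusted for group -0.22, p = 0.0127, adjusted p = 0.405, permutation). In exercised mice at ZT3 the same ratio was -3.94 in 7 HIF1α KO mice and -3.62 in 8 fl/fl mice (exact permutation p = 0.0789, adjusted p = 0.626). No ratio passed for time or exercise either.

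**Figure D5:**
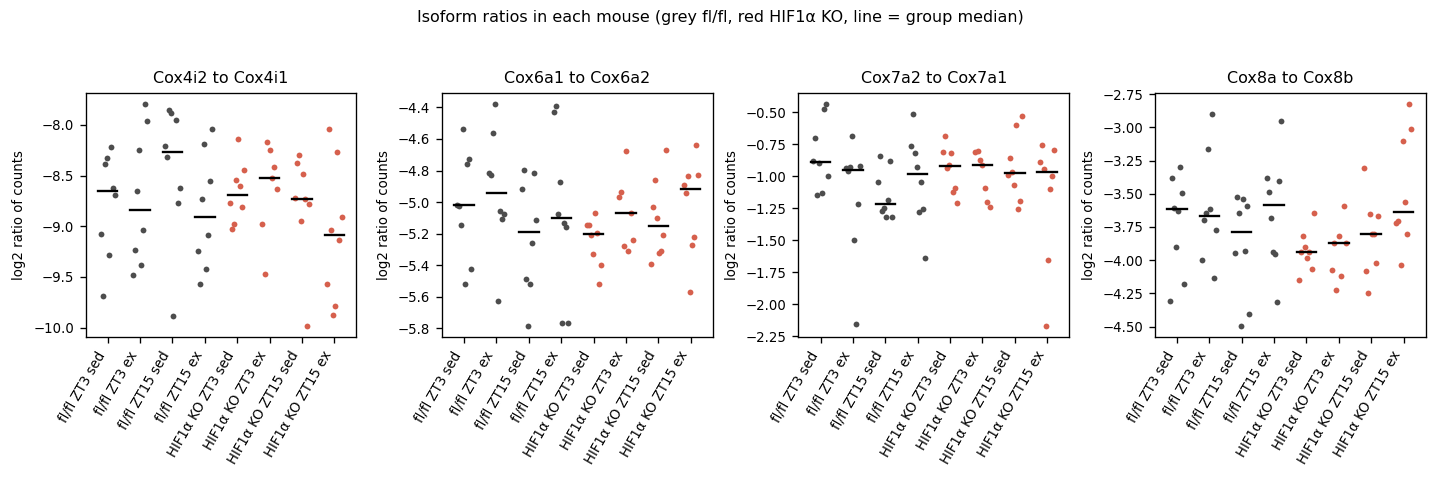
Log2 ratio of counts of the isoforms of 4 complex IV subunits (y axis, 1 panel a pair) in each mouse of the 8 groups (x axis), fl/fl in gray and HIF1α KO in red, with group medians as lines. All ratios are below 0, with medians over the 63 mice of -8.69, -5.10, -0.96, and -3.80 from left to right, and the groups overlap in each panel.

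The spread between mice of a group differed among the 45 genes. The residual SD of log2 CPM had a median of 0.27 over the 45 genes and of 0.33 over all genes tested, and ran from 0.17 for Atp5b to 0.55 for Cox4i2, the gene with the fewest counts. Atp5a1 (0.18) and Uqcrc1 (0.18) followed Atp5b. The log2 differences of 0.16 to 0.31 called between genotypes were thus below or near the spread between single mice, and rested on 31 and 32 mice.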

How the data were processed

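RNA from gastrocnemius muscle of 64 mice was sequenced after poly-A selection with a stranded kit (52 bp, 500 ng RNA). Per the labels and the study's methods, STAR alignments to mm10 were summarized by featureCounts, and the table the authors deposited holds raw counts per gene. Versions, strand setting, and treatment of shared reads are not given in the sources used here, so counts of genes with pseudogenes or overlapping genes are uncertain.

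Groups, sex, and mouse numbers came from the sample labels. Mouse 44 was left out, as in the study, which left 63 libraries. Genes were kept by filterByExpr (minimum count 10), scaled by TMM, and tested in edgeR 4.0.16 (R 4.3.3) with robust quasi-likelihood fits of group plus sex over all libraries, Benjamini-Hochberg adjustment over 15241 genes, and a threshold of 0.1, after the study's own design. Isoform ratios (prior count 2) were tested by permutation, exact within a combination and with 100000 shuffles for averages. Scripts were tested on simulated data. Named genes were all of complex II, the called genes with the 3 smallest p and the extremes of each complex, the isoform pairs, Cox7a2l and Atpif1, and the leading called gene of each list. Any other member could also be named. The members and all gene lists were chosen with earlier results of these data known. Identifiers were matched to the GENCODE annotation of GRCm38 (55141 of 55401), and promoters are from RefSeq. DESeq2 1.42.0 was an alternative, and the others were all 64 libraries, the mouse-number block, no sex term, 2 other count filters, RLE factors, an adjusted p under 0.05, only the compared groups, no shallow library (under 5 M counts), the slow-fiber score, and, chosen after the data were seen, removal of the length trend with and without the block, and the fit without 3 mice that stood apart.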

Additional observations from a re-analysis of the deposited data

Results flagged for a closer look

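In 160 checks of the highest and lowest mouse of a group, 5 values stood apart from the rest of their group by more than the 95% critical value, and chance alone flags about 1 in 20 groups. The Sdha level of sedentary fl/fl mouse 22 at ZT3 was 7.87 in log2 CPM, with the next mouse at 9.04. Sdha was also low in the other mice numbered 19 to 29, which belonged to other groups. The Sdhd level of exercised HIF1α KO mouse 47 at ZT15 was 6.67, with the next mouse at 7.16. The Cox4i2 level of exercised HIF1α KO mouse 28 at ZT3 was 0.77, above the next at 0.09. The log2 ratio of Cox4i2 to Cox4i1 was -9.88 in sedentary fl/fl mouse 49 at ZT15 (next -8.77) and -9.98 in sedentary HIF1α KO mouse 43 at ZT15 (next -8.95).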

How the results depend on the processing

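Of 316 recomputed counts of called genes 280 stayed within 1.5 times the value reported. Most of the 316 belong to comparisons with no call in the main fit, so this total says little about the comparisons with calls. For the genotype average (25), 12 genes were called at an adjusted p under 0.05, 11 with all 64 libraries, 15 without the count filter, 10 without the length trend, 9 without it and with the block, and 1 without exercised HIF1α KO mice 20, 23, and 28 at ZT3. For exercised mice at ZT3 (6), 0 were called at an adjusted p under 0.05, with the block, without the sex term, without the count filter, in both fits without the length trend, and without these 3 mice, 1 without the 3 shallow libraries, 2 with all 64 libraries, 3 with only the compared groups, 11 with at least 10 counts in every library, and 16 by DESeq2. For time in sedentary fl/fl mice (0), 5 were called with the block, 4 with only the compared groups, 3 without the 3 mice, 2 by DESeq2, 1 with at least 10 counts in every library, and 1 with the block and without the length trend. For the exercise average (1), 3 were called with the block, 2 with at least 10 counts in every library, 2 without the 3 shallow libraries, 2 without the length trend, 2 without the 3 mice, and 3 without it and with the block. For time by exercise in fl/fl mice (0), 5 were called without the 3 mice, 8 with only the compared groups, and 14 by DESeq2. For sex (9), 14 were called with the block, 17 with the slow-fiber score, and 16 with the block and without the length trend. No called gene changed direction in any of these fits. For most of these fits the share of all genes called is not given here, so the counts cannot be set against it. The 3 mice were chosen after their values were seen. The cause of these changes was not tested.

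Of 293 recomputed medians 16 moved by more than the spread between mice (SD 0.211). This limit is wider than the median of the genotype average, 0.19, so the loss of that whole median would not be counted. The three-way median of -0.60 became -0.33 with the block, -0.22 without the length trend, and -0.11 with both. For time by exercise in fl/fl mice 0.47 became 0.22, 0.17, and 0.09 in the same order, and for genotype by time in exercised mice -0.35 became -0.09, -0.12, and 0.01. With both changes the median was 0.09 for the genotypes in exercised mice at ZT3, -0.03 for time in exercised fl/fl mice, and -0.01 for genotype by exercise at ZT15. Without the 3 mice the median was 0.13 for the genotypes in exercised mice at ZT3, 0.05 for time in exercised HIF1α KO mice, 0.07 for genotype by exercise at ZT3, and -0.36 for the three-way term. None of the 128 recomputed tests of isoform ratios passed 0.05 after adjustment. No paired analysis was possible because each mouse number occurs in 1 group only, and the block of consecutive numbers stands in its place.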
